A study of Homo sapiens with 6 samples.

Results

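The genes described here move creatine into cells, make it and phosphorylate it. They are SLC6A8, GATM, GAMT, CKB, CKMT1A and CKMT1B, 6 of the 58735 genes in the deposited count table, found by their names in the FPKM files and by their identifiers in the table of counts. They were chosen by name with earlier results of these samples known, among them the large difference of SLC6A8 between the groups. The set was therefore selected on the same contrast that is described below, and the values of the 6 genes in that contrast are given as a description, without a test. The samples were MDA-MB-231 cells, an established human triple-negative breast cancer line, labelled wild type in every sample. They received either vehicle or SCH, the aqueous extract of Salvia chinensis Benth, at 100 mg/l for 24 h, with 3 samples labelled as biological repeats in each group. The sample labels give RPMI-1640 as the medium, while the methods of the study give DMEM. A single line was studied, at a single dose and time, and poly-A RNA from whole cultures was read. In such bulk samples, fewer cells that express a gene and less RNA per cell cannot be told apart.

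Creatine is made from arginine and glycine in 2 steps. GATM transfers the amidino group of arginine to glycine, giving guanidinoacetate and ornithine, and GAMT methylates guanidinoacetate with S-adenosylmethionine. Cells also take creatine up from outside through SLC6A8, a transporter driven by sodium and chloride. Creatine kinases (CKB in the cytosol, CKM in muscle, CKMT1A, CKMT1B and CKMT2 in mitochondria) pass a phosphate between ATP and creatine, and the resulting phosphocreatine buffers ATP where demand is high.

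Total counts per sample were 20291379, 18714240 and 18334857 with vehicle, and 16836369, 17979434 and 18414924 with SCH. Levels are given as CPM, read counts relative to the library size after scaling by TMM, which compare a gene between samples, and as FPKM, which also divide by exonic length and compare genes with each other. A limit of 3 counts corresponds to 0.148 to 0.178 CPM in these samples. It covers counting error only, since the libraries carried no molecular identifiers.

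The transcripts of the cells fitted the label of the line in most respects. VIM, a mesenchymal intermediate filament, stood at 1404 CPM with vehicle and 955 with SCH, and CD44 at 998 and 1022. ESR1 was at 0.217 and 0.125 CPM, and PGR had 0 counts with vehicle and 1 with SCH, whereas ERBB2 was measurable at 71.1 and 87.2 CPM. Of the 8 skeletal muscle markers, MYH1, MYH2, MYOG and TNNT3 had no count in any sample, and DES and ACTA1 were close to 0. MB, which encodes myoglobin, was lowered from 0.830 to 0.179 CPM, at a log2 fold change of -2.16. It had 46 counts in all with vehicle and 10 with SCH, so its SCH values lie near the limit of 3 counts. The summed level of the muscle markers was 77.5 to 89.3 CPM with vehicle and 72.5 to 79.8 with SCH, nearly all of it TNNT1, the troponin T of slow muscle fibres. The 5 luminal epithelial markers summed to 149 to 171 CPM with vehicle and 166 to 181 with SCH, led by KRT19, while CDH1 stayed below 0.4 CPM in every sample. The members of that list did not move together, since FOXA1 was raised from 4.10 to 9.17 CPM (log2 fold change 1.16) and KRT19 at 0.17, and EPCAM and GATA3 were lowered at -0.52 and -0.79. The 6 immune and endothelial markers summed to 2.76 to 3.62 CPM with vehicle and 1.15 to 1.94 with SCH, led by PTPRC with vehicle, and CD3E and CDH5 had at most 2 counts in a group. PTPRC went from 1.99 to 0.290 CPM, and what part these low transcripts had in the other results was not tested.

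SLC6A8 (ENSG00000130821) encodes the plasma membrane creatine transporter and lies on the plus strand of chromosome X, at chrX:153688099-153696593 on GRCh38. Its normalized level was 3.94, 4.45 and 4.10 CPM in the vehicle samples and 27.1, 28.8 and 24.7 CPM in the SCH samples. Every SCH sample was far above every vehicle sample, and the spread inside either group was small beside the gap. The means were 4.16 ± 0.260 (SD, n = 3) and 26.9 ± 2.09 CPM, a 6.45-fold higher level with SCH and a log2 fold change of 2.69 with a standard error of 0.11. The counts behind these levels were 77, 80 and 73 with vehicle and 473, 538 and 470 with SCH. Its rise ranked 1 among called genes whose groups did not overlap and whose counts averaged 100 or more, which is also why the gene was chosen. The plot of the 6 genes by sample shows this gap beside the smaller ones of CKB and GAMT.

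**Figure D1:**
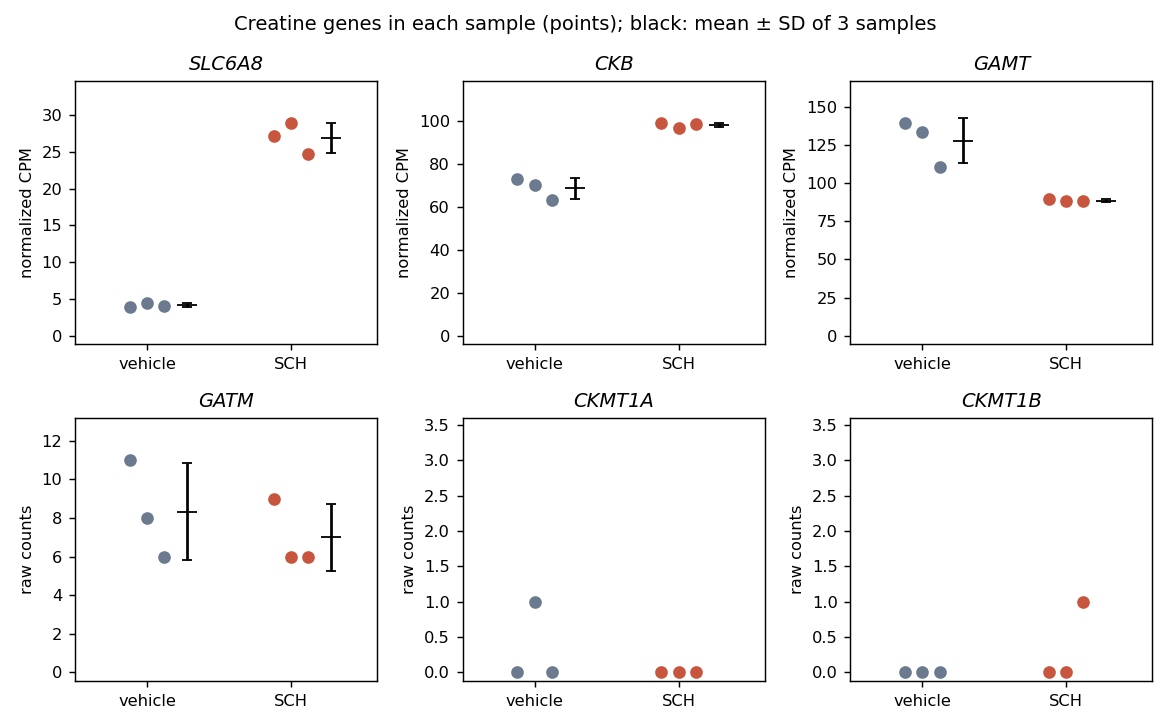
Level of each creatine gene in the 3 vehicle and 3 SCH samples, as normalized CPM for SLC6A8, CKB and GAMT and as raw counts for GATM, CKMT1A and CKMT1B, each on its own axis. Points are samples and black marks are the mean ± SD of 3 samples, not drawn for CKMT1A and CKMT1B, which had 1 count each in all; the groups do not overlap in the upper row and do overlap in the lower row.

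Some reads of SLC6A8 could in principle be shared with copies elsewhere. Of the distinct stretches of 100 bases in its transcripts, 112 of 6098 (1.84%) also occurred in transcripts of other genes, most often in AC133561.1. For stretches of 50 bases this was 539 of 5798 (9.30%), most of them in SLC6A10P. Both are pseudogenes on chromosome 16, and neither had a count in any sample. A further 0.400% of its exonic bases overlapped PNCK on the opposite strand.

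The bases before the RefSeq start of SLC6A8 and of CKB are printed, since these are the creatine genes with the higher levels in SCH. Both stretches come from RefSeq promoter windows on GRCh38.p14, cover the 250 bases before the start, and are written 5′ to 3′ on the strand of the gene. They span chrX:153687676-153687925 on the plus strand for SLC6A8 and chr14:103522831-103523080 on the minus strand for CKB. The CKB stretch lies inside the gene span given for CKB below, which starts further upstream than the RefSeq start. Capitals mark GGGCGG on either strand, the core of a GC box.
SLC6A8: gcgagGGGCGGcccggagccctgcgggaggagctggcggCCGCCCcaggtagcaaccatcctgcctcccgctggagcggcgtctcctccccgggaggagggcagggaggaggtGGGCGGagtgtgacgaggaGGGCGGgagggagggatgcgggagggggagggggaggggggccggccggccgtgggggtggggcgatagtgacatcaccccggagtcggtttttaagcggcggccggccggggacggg
CKB: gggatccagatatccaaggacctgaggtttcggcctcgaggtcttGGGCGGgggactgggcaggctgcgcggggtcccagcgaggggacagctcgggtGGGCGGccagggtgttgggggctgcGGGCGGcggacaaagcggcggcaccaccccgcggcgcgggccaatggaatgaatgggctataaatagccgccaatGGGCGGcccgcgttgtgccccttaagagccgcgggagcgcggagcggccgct

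RefSeq windows of 250 bases before and 50 after the start were found for 5 of the 6 genes, GAMT having no entry. Except for SLC6A8, these windows lie inside the gene spans printed in this report, whose starts differ from the RefSeq starts. The SLC6A8 window was 75.3% G or C, against a median of 58.7% over 35116 promoters, and held 32 CpG dinucleotides. GGGCGG occurred 4 times in it, and 45.0% of all promoter windows held that motif at least once. Read on both strands, the SLC6A8 window held neither CCAAT, present in 34.6% of all windows, nor the TATA box letters TATAAA, present in 11.5%. It also lacked the E-box CACGTG (7.26% of all windows), the ATF4-type element TGATGNAA (3.62%), the ERR half-site AAGGTCA (3.92%), the AP-1 element TGANTCA (7.71%) and the forkhead element TGTTTAC (3.42%). The CKB window was 72.3% G or C, with 36 CpG dinucleotides, GGGCGG 5 times, 2 matches to CCAAT and 1 to the TATA box letters. The GATM window was likewise rich in G and C, at 73.3%, with GGGCGG 3 times and CCAAT once, and this gene was nearly silent in these cells. The windows of CKMT1A and CKMT1B were 70.0% and 62.7% G or C, and among these 5 windows the E-box occurred only in that of CKMT1B. Such matches describe letters in a window and do not show that a factor bound there.

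GATM and GAMT catalyse the first and the second step of creatine synthesis. GATM (ENSG00000171766, chr15:45361124-45402327, minus strand) had 11, 8 and 6 counts with vehicle and 9, 6 and 6 with SCH. The samples of both groups lay in the same narrow range close to 0. Summed over a group this was 25 counts (95% Poisson interval 16.2 to 36.9) against 21 (13.0 to 32.1), a ratio of 0.842 with an interval of 0.448 to 1.57 on counting error alone. At this depth a difference of GATM inside that interval was not detectable. GATM did not pass the filter on low counts, and 7.30% of its exonic bases overlapped AC025580.3 on the opposite strand.

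GAMT (ENSG00000130005, chr19:1397026-1401570, minus strand) was the most abundant of the creatine genes with vehicle. Its level was 139, 134 and 111 CPM with vehicle and 89.4, 88.4 and 88.0 CPM with SCH. All SCH samples were below all vehicle samples, and the 3 SCH values were nearly the same while the vehicle values were more spread, with the third sample lowest. The means were 128 ± 15.0 and 88.6 ± 0.703 CPM, 1.44-fold lower with SCH, at a log2 fold change of -0.53 with a standard error of 0.066. The coefficient of variation was 11.7% over the vehicle samples and 0.794% over the SCH samples. No stretch of 50 bases of its exons occurred in the transcripts of another gene, and its pseudogene GAMTP2 had no count. The pair of enzymes was thus measured very unequally, GAMT at 51.5 ± 6.08 FPKM with vehicle and GATM at 0.0653.

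CKB (ENSG00000166165, chr14:103519659-103523111, minus strand) encodes the cytosolic brain-type creatine kinase. It stood at 72.7, 69.9 and 63.2 CPM in the vehicle samples and at 98.7, 96.7 and 98.5 CPM in the SCH samples. As with SLC6A8, every SCH sample exceeded every vehicle sample. The means were 68.6 ± 4.92 and 98.0 ± 1.09 CPM, 1.43-fold higher with SCH, with a log2 fold change of 0.51 and a standard error of 0.059. CKBP1, a processed pseudogene of CKB, had 1 count in 1 vehicle sample and none elsewhere.

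CKMT1A and CKMT1B encode the same kind of kinase, the ubiquitous mitochondrial creatine kinase, from a duplicated stretch of chromosome 15, at chr15:43692886-43699222 and chr15:43593054-43604901, both on the plus strand. CKMT1A had 0, 1 and 0 counts with vehicle and none with SCH, and CKMT1B had none with vehicle and 0, 0 and 1 with SCH. Neither copy was therefore detected above the limit of 3 counts in any sample. The copies share much sequence, with 2123 of the 3291 stretches of 100 bases in CKMT1A transcripts (64.5%) and of the 3932 in CKMT1B transcripts (54.0%) common to both, so reads of one could be set aside or credited to the other. How reads that match several places were counted is not given in the sources used here. Summed over the pair, each group held 1 count.

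Of the 6 genes, 3 passed the filter on low counts (SLC6A8, GAMT and CKB), and GATM, CKMT1A and CKMT1B did not. All 3 that passed were called by edgeR's quasi-likelihood test, where 58.7% of the 14736 tested genes were called, 29.3% as raised and 29.4% as lowered. Their groups did not overlap either, as for 62.4% of tested genes. Since the genes were chosen on this contrast, nothing is read from these counts. On the log2 scale, SLC6A8 sat at percentile 99.9 of all tested fold changes, CKB at 86.6 and GAMT at 14.9. Around them the median over all tested genes was -0.0034 on that scale, as the plot of fold change against level shows. The p-values of the fit measure the spread between these samples, labelled biological repeats, whose separate origin is not described further.

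**Figure D2:**
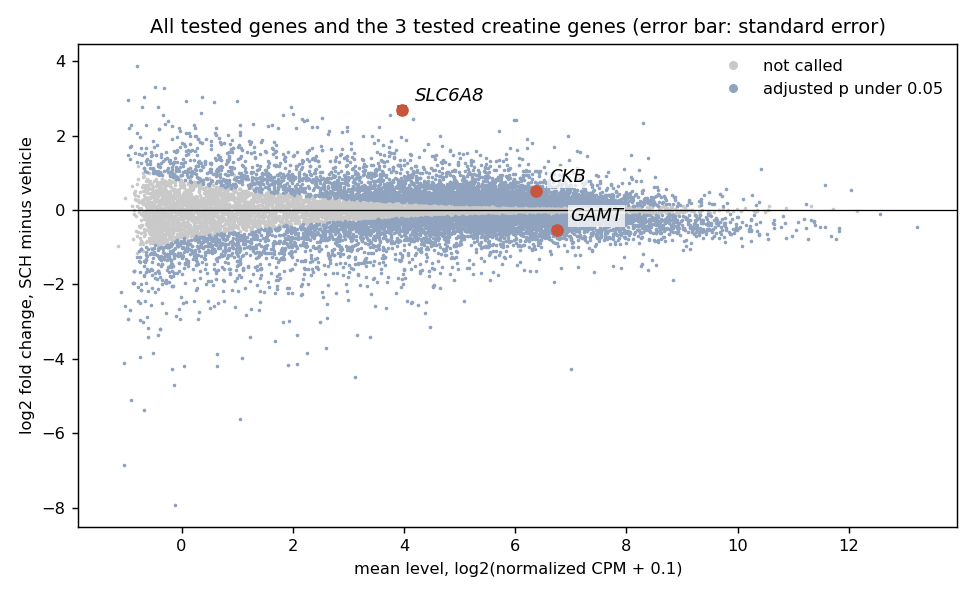
Log2 fold change, SCH minus vehicle, of each of the 14736 tested genes (vertical axis) against the log2 of its mean normalized CPM plus 0.1 (horizontal axis), with the tested creatine genes in red and their standard errors, which are smaller than the markers. SLC6A8 at 2.69 is at the upper edge of genes of its level, while CKB at 0.51 and GAMT at -0.53 lie inside the broad bands of called genes.

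Per length, the order of the levels was GAMT, CKB, SLC6A8 and GATM with vehicle, with CKMT1A and CKMT1B at or near 0. In vehicle samples GAMT had 56.0, 53.9 and 44.6 FPKM, CKB 26.4, 25.4 and 22.9, and SLC6A8 0.694, 0.784 and 0.721. No neighbours among these overlapped. In SCH samples GAMT had 36.3, 35.8 and 35.5 FPKM and CKB 36.1, 35.2 and 35.7, so this pair could no longer be ordered beyond its spread. SLC6A8 followed at 4.81, 5.10 and 4.35 FPKM. Among protein-coding genes SLC6A8 moved from percentile 46.7 to 64.6 of FPKM, CKB from 90.0 to 93.8 and GAMT from 95.9 to 93.8.

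The balance between the genes differed more than their sum. The FPKM ratio of CKB to GAMT was 0.471, 0.471 and 0.513 with vehicle and 0.994, 0.984 and 1.007 with SCH. The ratio of GAMT to SLC6A8 was 70.5 ± 9.54 with vehicle and 7.58 ± 0.571 with SCH, and that of CKB to SLC6A8 was 34.0 ± 3.45 and 7.54 ± 0.656. Both sets of ratios were apart between the groups without overlap. The summed FPKM of the 6 genes was 83.2, 80.1 and 68.3 with vehicle and 77.3, 76.2 and 75.6 with SCH, so the SCH samples lay inside the vehicle range. Within that sum SLC6A8 made up 0.956% on average with vehicle and 6.22% with SCH, GAMT 66.7% and 47.0%, and CKB 32.3% and 46.7%. These ratios restate the same contrast per length and are descriptions.

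**Figure D3:**
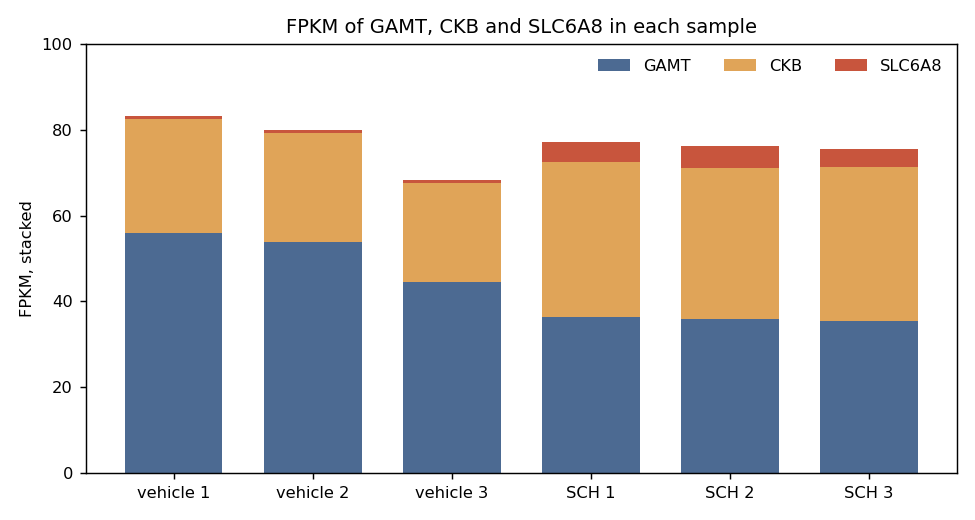
FPKM of GAMT, CKB and SLC6A8 stacked for each of the 6 samples (vertical axis, linear from 0), with GATM, CKMT1A and CKMT1B too low to draw. The stacks reach 68.3 to 83.2 with vehicle and 75.6 to 77.3 with SCH, with a smaller GAMT part and larger CKB and SLC6A8 parts in the SCH samples.

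Among the 5 genes with the profile most like that of SLC6A8 over the 6 samples, by Pearson's r of log2 CPM among the 10711 other genes averaging 100 counts or more, were UBE2Q1 (r = 0.9997), SLFN5 (0.9996), PLCXD2 (0.9994) and IL11 (0.9994). In all, 383 genes had an r above 0.99, and the 6 points share the same group step, so that an r this high mostly states that a gene also differed between the groups. UBE2Q1 was at 98.7 and 110 CPM, a log2 fold change of 0.16, and SLFN5 at 57.0 and 126 CPM, a 2.21-fold difference. Within the creatine set the r of SLC6A8 was 0.969 with CKB and -0.929 with GAMT.

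The genes that flank SLC6A8 did not share its large difference. BCAP31, 3898 bases away, had a log2 fold change of -0.22 and was called lowered, and CCNQ, the nearest tested gene on the other side at 88053 bases, was at -0.13 (edgeR adjusted p = 0.106). Next to GAMT, DAZAP1, 5998 bases away, was lowered at -0.92, while AC005329.1, 558 bases away on the other side, was not called. Beside CKB, AL133367.1 was lowered at -0.75 and MARK3, a kinase of microtubule-binding proteins, was at 0.09 and not called. SPATA5L1, which starts 3 bases from GATM, was lowered at -0.24, and DUOX1 was the nearest tested gene on the other side of GATM. Of the tested genes beside the CKMT1 copies, PPIP5K1 was raised at 0.28, and AC011330.1, PDIA3 and CATSPER2 were not called.

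Of 3 other genes of creatine handling, 2 were tested and neither was called, where 58.7% of all tested genes were. CKMT2, the mitochondrial kinase of muscle, was at 0.410, 0.946 and 0.561 CPM with vehicle and 0.515, 0.965 and 0.578 with SCH (log2 fold change 0.12, edgeR adjusted p = 0.826), and the groups overlapped. With each sample left out in turn, CKMT2 ran from -0.20 (without SCH sample 2) to 0.51 (without vehicle sample 2) and was not called. SLC16A12, a carrier that lets creatine leave cells, had 1.54, 1.22 and 1.40 CPM with vehicle and 0.630, 0.750 and 1.31 with SCH, at -0.62 (adjusted p = 0.101), with 1 SCH sample inside the vehicle range. Without that sample, SCH sample 3, it was called lowered, at -0.99 (adjusted p = 0.0277). CKM, the muscle kinase, had 0 counts with vehicle and 1 with SCH and was not tested. Thus CKB was the only creatine kinase above 1 CPM in any sample.

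SLC6A8 belongs to a family of sodium-coupled transporters for amino acids, taurine and neurotransmitters. Of 18 other family members only 3 passed the filter, none was raised and 2 were lowered (median of the tested, -1.26), so that 66.7% of the tested were called, near the 58.7% of all tested genes. SLC6A9, a glycine transporter, went from 29.9 ± 2.84 to 12.5 ± 0.379 CPM, a log2 fold change of -1.26 (adjusted p = 2.85e-11). SLC6A14, a broad amino acid transporter, went from 1.09 ± 0.201 to 0.288 ± 0.115 CPM, at -1.88 (adjusted p = 4.19e-04). With 60 counts in all with vehicle and 16 with SCH, its fold change rests on SCH values near the limit of 3 counts. The taurine transporter SLC6A6 was at 140 ± 3.39 and 151 ± 8.70 CPM (0.11, adjusted p = 0.0720) and was not called. The family had 1 raised gene with library sizes left unscaled and 1 without SCH sample 2. Of the rest, 6 had no count in any sample.

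Arginine and glycine, the substrates of GATM, are supplied by transporters and by enzymes of the urea and glycine pathways. Of 22 listed genes 13 were tested, 1 rose, 8 fell and 4 were not called, with a median log2 fold change of -0.34. The called share was 69.2%, beside 58.7% of all tested genes. CPS1, which makes carbamoyl phosphate for the urea cycle, fell from 14.7 ± 0.955 to 3.60 ± 0.967 CPM, at -2.02 (adjusted p = 3.75e-11). SHMT2, which makes glycine in mitochondria, fell from 550 ± 33.3 to 366 ± 4.41 CPM, at -0.59, and the arginine transporter SLC7A1 from 324 ± 4.75 to 230 ± 18.1 CPM, at -0.49. The listed gene that rose was ARG2, the mitochondrial arginase, at 0.38 with 10.5 ± 0.756 CPM with vehicle and 13.6 ± 1.36 with SCH, and 2 rose without vehicle sample 3 or with unscaled library sizes.

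The methyl donor used by GAMT is made and recycled by the methyl cycle. Of 16 listed genes 12 were tested, with 3 raised, 7 lowered, 2 not called and a median of -0.46. This is 83.3% called, beside 58.7% of all tested genes. PEMT, another large consumer of S-adenosylmethionine, fell from 33.7 ± 1.90 to 11.6 ± 1.40 CPM, at -1.55 (adjusted p = 1.17e-12). MAT2A, which makes S-adenosylmethionine, fell from 278 ± 5.86 to 195 ± 3.98 CPM, at -0.51, and AHCY, which clears its product, was lowered at -0.44. AHCYL2 and CTH were among the raised members, at 0.45 and 0.28.

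Ornithine, the by-product of GATM, feeds proline and polyamine synthesis. All 18 listed genes were tested, and 6 rose, 7 fell and 5 were not called, with a median of -0.12 and 72.2% called, against 58.7% of all tested genes. PYCR1, the last step of mitochondrial proline synthesis, fell from 98.3 ± 9.26 to 37.3 ± 2.51 CPM, at -1.40 (adjusted p = 9.28e-14). The spermidine and spermine synthases SRM and SMS fell at -0.75 and -0.76. SAT1, which acetylates polyamines for breakdown or export, rose from 36.2 ± 1.75 to 67.0 ± 3.59 CPM, at 0.89, and SMOX, which oxidises spermine, rose too. ODC1, which makes putrescine from ornithine, rose at 0.23, and OAT, which converts ornithine towards proline, at 0.33.

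Adenylate kinases move phosphate between adenine nucleotides and work beside creatine kinase. Of 9 listed, 7 were tested, 2 rose, 5 fell and none of those tested was left uncalled, where 58.7% of all tested genes were called, and the median was -0.39. The genes that fell were 3 with unscaled library sizes, without vehicle sample 3 or without SCH sample 1. AK4, of the mitochondrial matrix, fell from 57.5 ± 2.67 to 39.5 ± 2.20 CPM, at -0.54. AK1, the cytosolic form, rose from 5.76 ± 1.57 to 9.63 ± 0.680 CPM, at 0.74. AK5 had 152 counts in all with vehicle and 10 with SCH, so that its fitted fold change of -3.87 rests on SCH values near the limit of 3 counts. The carriers and channels that mitochondrial creatine kinase works with were also mixed, with 6 of 7 tested, 1 raised, 4 lowered, 1 not called and a median of -0.26 (83.3% called, 58.7% over all tested genes), and with unscaled library sizes 2 were raised and 3 lowered. SLC25A6, an ADP/ATP carrier, fell from 246 ± 12.6 to 142 ± 3.47 CPM, at -0.79, VDAC1 of the outer membrane fell at -0.44, and SLC25A4, the muscle-type carrier, rose from 50.7 ± 3.29 to 79.4 ± 3.58 CPM, at 0.65.

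The sodium gradient that SLC6A8 runs on is kept by the sodium pump, for which 5 of 15 listed genes were tested, 1 rose, 2 fell and 2 were not called (median 0.038), and the called share of 60.0% was close to the 58.7% of all tested genes. With unscaled library sizes 2 rose and 1 fell. ATP1B1, a beta subunit, was lowered from 226 ± 6.82 to 194 ± 8.04 CPM, at -0.22, a call lost with unscaled library sizes, and FXYD5 was raised at 0.17. Kinases reported to act on SLC6A8 activity had a median of 0.27, with 10 of 11 tested, 6 raised, 2 lowered and 2 not called. This is 80.0% called, beside 58.7% of all tested genes. The lowered genes were 1 without vehicle sample 3, SCH sample 1 or SCH sample 3, with unscaled library sizes, or with limma on FPKM. PIKFYVE rose at 0.44 and WNK1 at 0.29, MTOR and SGK1 at 0.20 and 0.25, and STK39 fell from 41.4 ± 1.33 to 28.4 ± 1.37 CPM, at -0.55. In the ERR and PGC-1 group, nuclear receptors and coactivators of mitochondrial and creatine gene transcription, 4 of 6 were tested, none rose and 2 fell, with a median of -0.44, where 58.7% of all tested genes were called, while 1 rose without SCH sample 2 or with unscaled library sizes. PPARGC1B fell from 12.7 ± 0.457 to 2.80 ± 0.387 CPM, at -2.19 (adjusted p = 3.55e-12), PPRC1 fell at -0.74, and ESRRA was at 0.08 and not called.

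Over the 10 lists together, 80 of 125 genes were tested, of which 20 were raised and 39 lowered. Their median was -0.18 on the log2 scale. This stands beside 29.3% raised and 29.4% lowered and a median of -0.0034 over all tested genes. With unscaled library sizes the listed genes divided into 28 raised and 32 lowered, with 7 calls lost and 8 gained, and no gene called under TMM changed its sign.

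**Figure D4:**
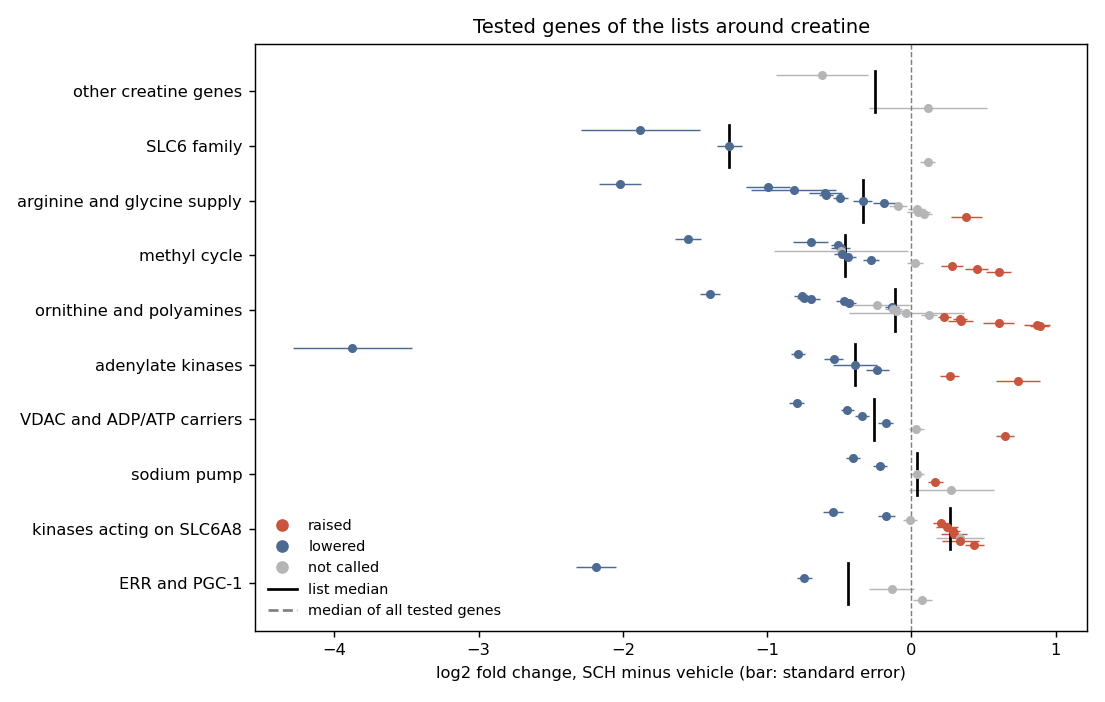
Log2 fold change, SCH minus vehicle, with its standard error (horizontal axis) for every tested gene of the 10 lists around creatine (vertical axis), in red where raised, blue where lowered and grey where not called. Black bars are list medians, which run from -1.26 for the SLC6 family to 0.27 for the kinases acting on SLC6A8, and the dashed line is the median of all tested genes, -0.0034.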

How the data were processed

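Raw counts per gene were deposited by the authors for 3 vehicle and 3 SCH samples, without normalization, together with FPKM values per sample. The submitters' processing notes name CASAVA 1.8, HISAT2 2.0.5, featureCounts 1.5.0-p3, DESeq2 1.20.0 and GRCh38 (hg38), without roles. Strand, read length and the treatment of reads with several matches are not given in the sources used here. Apart from units, the deposited FPKM equalled the count divided by gene length and by total count, times a factor for each sample. That factor was 0.995 to 1.008 with vehicle and 0.937 to 0.941 with SCH. All 58735 gene identifiers were in GENCODE 29, 58724 of them with the same start and end.

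The counts were fitted in R 4.3.3 with edgeR 4.0.16 (TMM, filterByExpr, quasi-likelihood test of SCH against vehicle, no covariates, Benjamini-Hochberg adjustment over all 14736 genes kept, threshold 0.05). Called means past that threshold. The standard error of a log2 fold change is its size over the square root of F. Total counts of 16836369 to 20291379 per sample set the limit of 3 counts. Samples of a group were compared pairwise, and none were copies, the chi-square over genes being 2.12 to 5.81 for each degree of freedom. Alternatives were RLE factors, unscaled library sizes, upper quartile factors, DESeq2 1.42.0, limma 3.58.1 on log2(FPKM + 1) and log2(FPKM + 0.1), no filter, a minimum of 10 counts in all samples, a block for the replicate number, each sample left out, and near copies summed. The fit was also run on simulated data in which few genes changed, unlike these data, and no result here rests on that run. Promoter windows came from RefSeq (GRCh38.p14), and shared stretches from GENCODE 29 transcripts, with Python 3.11.15.

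The 6 genes and the 10 lists around them, written from general knowledge, were chosen with earlier results of these data known. The genes named were the 6, every other creatine gene, up to 3 called genes of smallest p in each list, near copies, the nearest tested genes on each side, and the 5 most like SLC6A8. Marker genes of the line and of other cell types were also named, outside this rule. ARG2, AHCYL2, CTH, SAT1, SMOX, ODC1, OAT, AK1, MTOR, SGK1, SLC6A6 and ESRRA were named after their values were seen. Some genes that this rule covers are not reported here.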

Additional observations from a re-analysis of the deposited data

How the results depend on the processing

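Across 16 alternatives the log2 fold changes of SLC6A8, GAMT and CKB kept their signs, a description of genes chosen on this contrast. Summing near copies left these values unchanged, since SLC6A10P had no count and the summed CKMT1 pair did not pass the filter. SLC6A8 stood at 1.73 on log2(FPKM + 1) and 2.54 on log2(FPKM + 0.1), where the added constant shrinks the fold change of a gene below 1 FPKM, and at 2.64 to 2.76 with each sample left out. Over all alternatives GAMT ran from -0.62 to -0.43 and CKB from 0.46 to 0.62. Between 7809 and 8814 genes were called, and DESeq2 called 7919, of which 7912 were shared with edgeR. With unscaled library sizes 5519 were raised and 3295 lowered, against 4318 and 4332, and the median of all genes was 0.099. With the replicate number as a block, 8705 genes were called and SLC6A8 was at 2.69. Samples with the same number did not deviate together (correlations of 0.046, -0.022 and 0.022). Such correlations cannot show whether samples with the same number were handled together. The other creatine genes had 0 to 1 calls with each sample left out, and the SLC6 family had 1 call with at least 10 counts in every sample, where fewer of its genes are tested. Counts limit GATM, CKMT1A and CKMT1B, which had too few reads for a test.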
